A study of Danio rerio with 12 samples.

Results

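Hearts of zebrafish embryos that lack functional tet2 and tet3 were compared with hearts of their siblings at 48 hours post fertilisation (hpf), using 4 of the 12 RNA-seq libraries of the study. All libraries of the comparison were taken as the labels group them: 2 from double mutants (DM), which carry inactivating mutations in both tet2 and tet3, and 2 from siblings, a mixture of wild-type embryos and tet2 and/or tet3 heterozygotes. The strain background is given as AB for every sample, embryos received no treatment, and the hearts were dissected by hand. Another 2 heart libraries from wild-type (WT) embryos and 6 whole-embryo libraries at 25 hpf, 3 sibling and 3 DM, are given beside the comparison as levels, and the WT hearts also entered the fits, where all 6 hearts share an estimate of the spread. RNA of each heart sample, starting from 1 ng, was amplified before library construction. The heart libraries are numbered 1 and 3 in each group, and the labels do not say whether they came from separate clutches, and a p-value here reflects the scatter within the 3 heart groups, WT included, which may be technical.

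TET enzymes are dioxygenases that oxidise 5-methylcytosine in DNA, the first step of active demethylation at enhancers and promoters. At this stage the zebrafish heart has looped into an atrium and a ventricle, each a myocardial wall lined by endocardium. Endocardial cushions form at the atrioventricular canal, and the epicardium arises from proepicardial cells beside the heart. The heart lies next to the pharyngeal arches, the foregut and its mesenchyme, the yolk and the eyes, and blood passes through it.

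The inactivated genes were first read in every library. Levels are given as CPM, TMM-scaled counts relative to library size. Transcripts of tet2 stood at 231 and 163 CPM in sibling hearts against 124 and 162 CPM with the mutations. For tet3 the sibling levels of 110 and 66.6 CPM stood beside 98.7 and 115 CPM in mutants. The remaining family member, tet1, had 56.5 and 43.4 CPM in sibling libraries beside 40.3 and 47.2 CPM in mutant ones. No tet gene passed edgeR or DESeq2, the DM and sibling libraries overlapped for tet1 and tet3 and touched for tet2, and transcript level gives no check of an inactivating mutation. The genotype therefore rests on the labels.

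The tissue in each library was read from marker lists, because a hand dissection can carry neighbouring cells. Depth was 3289161 and 4480186 counts in sibling hearts and 5438252 and 4246663 counts in DM hearts, so that a count of 0 allows up to 0.839, 0.651, 0.493 and 0.687 CPM respectively, on the same TMM scale as the values. Genes of cardiomyocyte contraction and calcium handling took 3.42% and 6.95% of sibling counts and 7.43% and 9.63% of DM counts, with 11% and 6.11% in WT. Sibling library 1 therefore held the smallest cardiomyocyte share of the 6 hearts. Lens and retina genes took 0.571% of sibling library 1 and 0.344% of DM library 1, against 0.00752% and 0.00655% of the libraries numbered 3. Skeletal muscle genes took 1.96% of DM library 1 and between 0.364% and 0.725% of the other 5 hearts. Skin genes took 0.643% and 0.370% in siblings, 0.444% and 0.522% in DM, and neuronal genes 1.43% and 0.330% in siblings, 1.01% and 0.737% in DM. The groups overlapped for lens, skin and neurons, while muscle stood higher in both DM libraries, and the part of these tissues in the results below was not tested. In bulk samples, fewer cells of a type and less RNA per cell cannot be told apart.

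**Figure D1:**
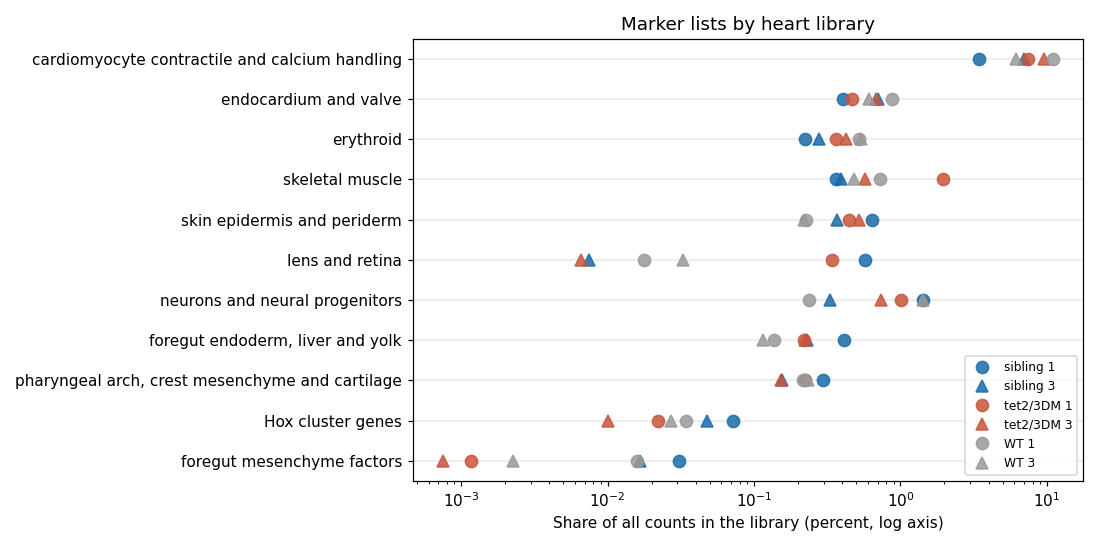
Share of each library's counts, in percent on a log axis, taken by 11 marker lists in the 6 heart libraries (colour gives the group, circles the libraries numbered 1, triangles those numbered 3). Lens and retina genes separate the sibling and DM libraries numbered 1 (0.571% and 0.344%) from the other hearts. The foregut mesenchyme factors are lowest in both DM libraries (0.00118% and 0.000754%). That list and the Hox list were drawn up after their values were seen, so their levels carry no weight.

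Across the 16998 genes tested, the main test made no call. The quasi-likelihood test of edgeR called 0 genes in either direction at an FDR of 0.05 (0.0% of genes tested), its smallest adjusted p was 0.723, and 568 genes had an unadjusted p under 0.05. limma-voom also called 0. DESeq2 called 57 genes lower in DM (0.335% of genes tested) and 18 higher (0.106%), and the groups did not overlap for any of these 75. Genes are said below to have fallen or risen in DM hearts only where DESeq2 called them. Levels whose groups did not overlap were common: both DM libraries lay above both sibling libraries for 2543 genes (15%) and below them for 2636 (15.5%). With a gap of at least 2-fold between the nearest libraries, 155 genes lay higher (0.912%) and 264 lower (1.55%). An exact permutation test of 2 against 2 libraries cannot go below a two-sided p of 0.333 for a single gene.

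The DESeq2 counts depended on single libraries. Without sibling library 1 the test called 12 genes lower and 11 higher, and without sibling library 3 it called 50 lower and 75 higher. Without DM library 1 it called 22 lower and 4 higher, and without DM library 3, 18 lower and 50 higher. Of the 57 lower calls, 7 passed whichever heart library was left out: BMP10 (1 of many), MYADM (1 of many), hoxb8a, foxf1, inhbaa, BNC1 and zgc:101560. None of the 18 higher calls did. The authors' deposited table calls 77 genes lower and 26 higher at the same threshold, and 66 of these 103 are among the 75 called here. Among the calls named below, it does not call has2, hoxc8a, ctsl.1, org and si:ch211-57n23.4 (deposited adjusted p = 0.0769, 0.0761, 0.361, 0.195 and 0.4615).

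**Figure D2:**
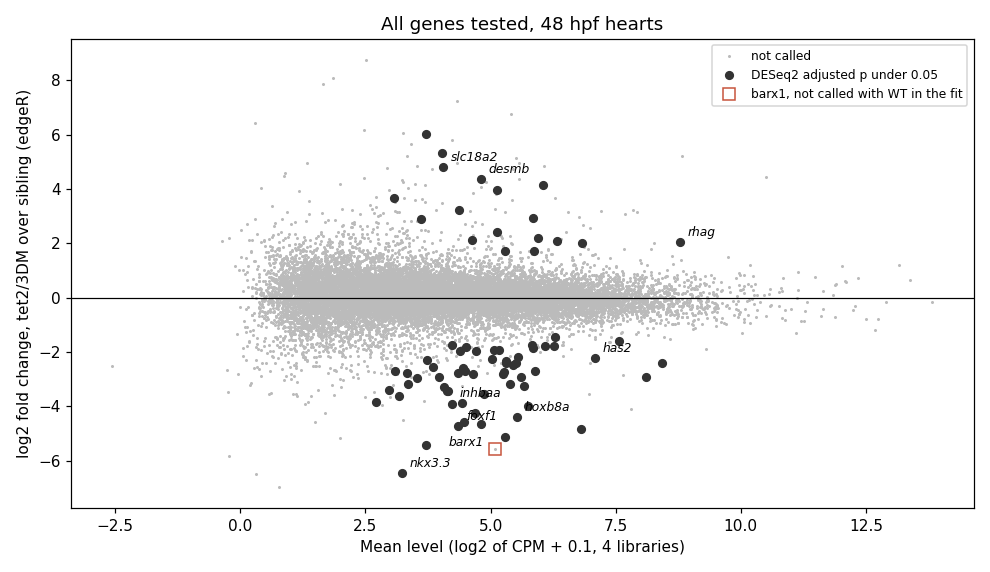
The log2 fold change of DM over sibling hearts from edgeR against the mean level of the 4 libraries, for all 16998 genes tested; dark points are the 75 genes with a DESeq2 adjusted p under 0.05. The calls lie at 57 lower and 18 higher, and barx1 (open square) lies among the lowest although it was not called with the WT hearts in the fit.

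Among the transcription factor genes that fell, foxf1, foxf2a, nkx3.3 and osr1 are known from foregut and pharyngeal mesenchyme. foxf1, a forkhead factor of lateral plate and foregut mesenchyme (ENSDARG00000015399, chromosome 18, positions 30868983 to 30872111 in the deposited coordinates), had 139 and 183 counts in sibling hearts and 12 and 4 in DM. These are 38.9 and 39.7 CPM against 1.97 and 0.916 CPM, a log2 fold change of -4.71 ± 0.76 (SE; DESeq2 adjusted p = 5.72e-06). Both DM libraries lay below both sibling libraries, with a gap of 19.7-fold between the nearest.

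Its relative foxf2a, a regulator of mesenchyme, had 416 and 158 counts in siblings and 11 in each DM library (log2 fold change -5.11 ± 1.25, DESeq2 adjusted p = 0.000389). Without sibling library 1 this call was lost (adjusted p = 0.116). nkx3.3, an NK homeobox gene of pharyngeal mesenchyme, had 88 and 56 counts against 2 and 0, a summed-count ratio of 91.9 (95% interval 25.0 to 766, counting error only; DESeq2 adjusted p = 0.000389). The nkx3.3 call was lost without sibling library 1 or DM library 1, with adjusted p up to 0.0694. osr1, a zinc-finger factor of foregut-adjacent and kidney mesoderm, had 41 and 58 counts against 2 and 6 (summed-count ratio 15.8, interval 7.71 to 37.6; DESeq2 adjusted p = 0.0374) and passed in 1 of the 6 fits that left out a heart library.

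The groups were also far apart for barx1, a homeobox gene of pharyngeal arch and stomach mesenchyme, which is named here after its values were seen. It had 267 counts in each sibling library and 13 and 2 in DM, a summed-count ratio of 45.4 (interval 27.3 to 81.8). It was not called with all 6 hearts (DESeq2 adjusted p = 0.379), and it was called on the 4 compared libraries alone (adjusted p = 2.76e-11). The WT libraries stood at 88.8 and 0.432 CPM for barx1, so WT hearts spanned the range from above both siblings to the DM level. For barx1 the authors' deposited table lists -3.68 on the log2 scale, with 2.06e-12 as adjusted p.

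The same split between the WT hearts ran through related genes. WT library 1 and WT library 3 had 22.5 and 6.49 CPM of foxf1, 50.6 and 4.11 CPM of foxf2a, 12.1 and 4.32 CPM of nkx3.3, and 11.5 and 2.81 CPM of osr1. DM hearts lay below WT library 3 for each of these 4 genes. A list of 8 foregut mesenchyme factors was drawn up after these values were seen, so its count, median and share carry no weight. It had 7 members tested, all lower in both DM libraries (median log2 fold change -4.71, against 0.04 over all genes tested). Its counts made up 0.0307% and 0.0166% of the sibling libraries, 0.00118% and 0.000754% of DM, and 0.0159% and 0.00227% of WT. How much adjoining foregut mesenchyme each dissection carried was not tested. The pharyngeal arch and cartilage list, which holds 4 of the 7, had 12 of 51 tested members lower without overlap and 4 higher. These are 23.5% and 7.84%, against 15.5% and 15% of all genes. The median log2 fold change of the arch list was -0.51 with 4 libraries and -0.14 with the libraries numbered 3 alone. The list's share of counts overlapped between the groups (0.294% and 0.156% in siblings, 0.224% and 0.154% in DM).

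**Figure D3:**
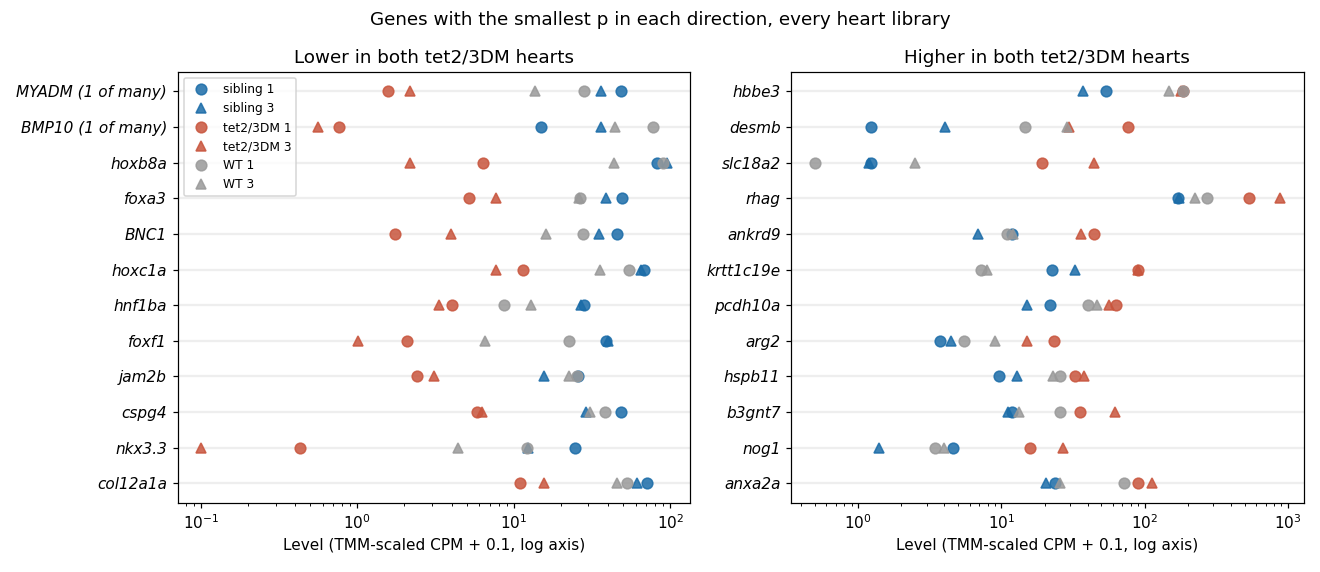
TMM-scaled CPM plus 0.1, on a log axis, of 12 genes in each direction, in every heart library (circles for libraries numbered 1, triangles for those numbered 3). They have the smallest edgeR p among genes with a proper symbol, a mean of at least 5 CPM and no overlap. For the lower genes both DM points lie left of all sibling and WT points, as for foxf1 at 1.97 and 0.916 CPM against 38.9 and 39.7 CPM in siblings; among the higher genes the WT points for hbbe3 (185 and 149 CPM) lie near DM (186 and 179 CPM).

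Genes for the ligands inhbaa, BMP10 (1 of many), rspo2, cxcl12b and pdgfab fell. inhbaa encodes the inhibin beta A chain, which dimerises to form activin A, a ligand of the TGF-beta family. It had 129 and 156 counts in sibling hearts against 13 and 11 in DM, or 36.1 and 33.8 CPM against 2.14 and 2.52 CPM. The log2 fold change was -3.90 ± 0.67 (DESeq2 adjusted p = 0.000126), and the largest adjusted p with a heart library left out was 0.0498. The WT libraries again differed, at 20.6 and 6.05 CPM, and both lay above DM.

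BMP10 (1 of many), a zebrafish relative of the mammalian cardiac ligand BMP10 (ENSDARG00000045632), had 53 and 166 counts in siblings and 4 and 2 in DM. The levels of 14.8 and 36.0 CPM against 0.658 and 0.458 CPM differ by a summed-count ratio of 46.6 (interval 21.1 to 128; DESeq2 adjusted p = 9.11e-07). WT hearts held more than siblings, 77.9 and 44.1 CPM. The gene was near 0 in all whole embryos at 25 hpf, with at most 0.129 CPM.

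rspo2, an R-spondin that enhances Wnt signalling, had 118 and 543 counts against 58 and 31 (log2 fold change -3.17 ± 0.64, DESeq2 adjusted p = 0.000643). Sibling library 1, at 33.0 CPM, lay between the DM libraries (9.54 and 7.10 CPM) and sibling library 3 on this gene. Without sibling library 3 or DM library 3 the call was lost. WT hearts, at 114 and 89.1 CPM, were on the side of sibling library 3 (118 CPM). The chemokine gene cxcl12b, whose product guides migrating cells through Cxcr4, stood at 95.1 and 110 CPM in siblings against 16.1 and 15.3 CPM in DM (log2 fold change -2.70 ± 0.50, DESeq2 adjusted p = 0.000389), a call lost without either DM library. pdgfab, a platelet-derived growth factor chain, had 71 and 38 counts against 5 and 8 (DESeq2 adjusted p = 0.0459), and passed in none of the fits that left out a heart library. The last 2 are outside the rule for named genes and were chosen after their values were seen.

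In the opposite direction stood nog1, which encodes the BMP antagonist Noggin1. It had 16 and 6 counts in siblings against 96 and 118 in DM, and 3.36 and 3.89 CPM in WT beside 15.8 and 27.0 CPM in DM. Its DESeq2 adjusted p was 0.0467, and it failed whichever library was left out. The activin, TGF-beta and BMP list had 60 tested members with a median log2 fold change of 0.05, 12 higher and 11 lower without overlap, so the list as a whole did not lean to either side. The Wnt list leaned lower by count, with 19 of 55 members below and 6 above. Those counts are 34.5% and 10.9%, against 15.5% and 15% of all genes. Beside rspo2 its member sfrp1a, a secreted Wnt inhibitor, fell (25.5 and 18.2 CPM against 3.13 and 5.73 CPM, DESeq2 adjusted p = 0.0313, not called without any one library). The median of the Wnt list was -0.29 with all 4 libraries and -0.07 with the libraries numbered 3 alone.

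BNC1 and jam2b fell, while other genes known from the epicardium were not called. BNC1, a zebrafish gene named after the zinc-finger factor basonuclin 1 that marks epicardium and mesothelium in mammals (ENSDARG00000100757), had 162 counts in each sibling library and 10 and 17 in DM. Its log2 fold change was -3.87 ± 0.59 (DESeq2 adjusted p = 5.07e-06), and WT hearts stood between the groups at 27.7 and 16.0 CPM. jam2b, a junctional adhesion molecule found in lateral plate mesoderm and epicardial cells, stood at 25.5 and 15.4 CPM in siblings against 2.3 and 2.98 CPM in DM (log2 fold change -2.94 ± 0.49, DESeq2 adjusted p = 0.000723). The jam2b call was lost without sibling library 1 or either DM library (DESeq2 adjusted p up to 0.337). WT hearts, at 25.3 and 22.5 CPM, were at the sibling level for jam2b.

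The defining factors of the epicardium were scarce in all hearts. tcf21 had 29 and 20 counts in siblings and 6 and 4 in DM, a summed-count ratio of 6.25 (interval 3.13 to 13.9), with no DESeq2 adjusted p. tbx18 and wt1a overlapped between the groups, at 34 and 6 counts against 11 and 6, and 39 and 8 against 1 and 8. Of 19 epicardial and proepicardial genes tested, 5 lay lower and 4 higher without overlap, and only jam2b of the 19 was called. The list has an entry for bnc1, but BNC1 was not among its 19 tested members. The non-overlapping members are 26.3% and 21.1%, against 15.5% and 15% of all genes. The median of the epicardial list was -0.63 with 4 libraries and 0.07 with the libraries numbered 3 alone. The list's summed share of counts, 0.157% and 0.193% in siblings, 0.180% and 0.224% in DM, overlapped.

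aldh1a2, the retinaldehyde dehydrogenase that makes retinoic acid in epicardium and foregut-adjacent mesoderm, stood at 29.1 and 31.5 CPM in siblings against 5.43 and 15.8 CPM in DM, without a call (DESeq2 adjusted p = 0.982). rdh10a, the retinol dehydrogenase one step before it, fell from 91.2 and 79.8 CPM to 10.9 and 11.5 CPM (log2 fold change -2.94 ± 0.74, DESeq2 adjusted p = 0.0145). The rdh10a call was lost without sibling library 1 or without either DM library, and WT hearts were at 93.1 and 17.9 CPM. Of 28 genes of retinoic acid handling, 9 lay lower and 4 higher without overlap (32.1% and 14.3%, against 15.5% and 15% of all genes). Their median log2 fold change was -0.34 with 4 libraries and -0.05 with the libraries numbered 3 alone.

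Of the Hox genes, which pattern the body axis in response to retinoic acid among other signals, hoxb8a, hoxc1a, hoxc8a and hoxa3a fell. hoxb8a had 294 and 436 counts in sibling hearts and 38 and 9 in DM, with 82.3 and 94.6 CPM against 6.25 and 2.06 CPM. Its log2 fold change was -4.38 ± 0.66 (DESeq2 adjusted p = 3.57e-08), and with no filter on low counts it was also 1 of 3 genes that edgeR called (adjusted p = 0.0402). Both WT hearts, at 89.7 and 43.5 CPM, lay far above DM. hoxc1a stood at 68.3 and 65.1 CPM against 11.4 and 7.56 CPM (log2 fold change -2.81 ± 0.43, DESeq2 adjusted p = 1.53e-05), a call lost without DM library 3 (adjusted p = 0.0573).

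hoxc8a and hoxa3a, seen among the calls and outside the rule for named genes, fell as well. hoxc8a had 171 and 275 counts against 50 and 3 (DESeq2 adjusted p = 0.0295), and hoxa3a 220 and 207 against 89 and 58 (DESeq2 adjusted p = 0.010). Without DM library 3 or either sibling library hoxc8a was lost, and hoxa3a passed only without WT library 3. The list of Hox cluster genes was drawn up after these values were seen, so its count, median and share carry no weight. Of 32 genes tested, 17 lay below and 1 (hoxd3a) above without overlap, with a median log2 fold change of -1.66. They took 0.0725% and 0.0479% of sibling counts, 0.0221% and 0.010% of DM counts and 0.0343% and 0.0272% of WT counts. In whole embryos at 25 hpf hoxb8a overlapped between sibling (30.7, 43.4 and 28.5 CPM) and DM (34.7, 42.2 and 36.0 CPM).

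Of the factors of foregut endoderm, foxa3 and hnf1ba fell. foxa3, a forkhead factor of gut endoderm, had 176 and 178 counts in siblings and 31 and 33 in DM, a log2 fold change of -2.80 ± 0.43 (DESeq2 adjusted p = 3.74e-05; lost without sibling library 1 or DM library 1, up to 0.168). hnf1ba, a homeobox factor of foregut and kidney epithelium, had 100 and 124 counts against 24 and 14 (log2 fold change -2.93 ± 0.47, DESeq2 adjusted p = 0.000371). hnf1ba was lost without any 1 of the 4 compared libraries, and WT hearts stood at 8.5 and 12.8 CPM beside 28.0 and 26.9 CPM in siblings. Of 56 genes of foregut endoderm, liver and yolk, 20 lay lower and 3 higher without overlap. These are 35.7% and 5.36%, against 15.5% and 15% of all genes. The list's median log2 fold change was -0.68 with 4 libraries and -0.20 with the libraries numbered 3 alone. WT hearts were below both siblings for 29 of the 56, with no share over all genes to set beside it. The list's share of counts was 0.411% and 0.229% in siblings, 0.221% and 0.224% in DM, and 0.137% and 0.116% in WT.

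Within the endocardium and valve list, 3 of 38 genes fell and none rose, beside 0.335% and 0.106% of all genes tested. has2, the hyaluronan synthase that builds the cardiac jelly of the cushions, had 402 and 1530 counts in siblings and 252 and 239 in DM. At 113 and 332 CPM against 41.4 and 54.8 CPM the groups were 2.05-fold apart at their nearest, with a log2 fold change of -2.21 ± 0.56 (DESeq2 adjusted p = 0.0322). Both WT hearts were at the level of sibling library 3, at 354 and 246 CPM. The authors' deposited table does not call has2 (deposited adjusted p = 0.0769). The has2 call was lost without sibling library 3 or either DM library.

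egr3, an early growth response factor of endocardium, stood at 37.8 and 96.1 CPM in siblings, 15.3 and 9.85 CPM in DM and 79.9 and 116 CPM in WT (DESeq2 adjusted p = 0.0138). erbb3a, a neuregulin receptor, stood at 61.3 and 45.8 CPM in siblings, 11.5 and 10.8 CPM in DM and 28.1 and 17.5 CPM in WT (DESeq2 adjusted p = 0.00293). Both calls were lost without sibling library 3 or either DM library, and erbb3a also without sibling library 1. The pan-endocardial nfatc1 (33.3 and 104 CPM against 61 and 106 CPM), the flow-responsive klf2a (31.9 and 49.9 CPM against 37.0 and 52.7 CPM) and the receptor notch1b (727 and 1122 CPM against 672 and 1593 CPM) overlapped between the groups. The median of the list was -0.07, with 6 members lower and 5 higher without overlap. These are 15.8% and 13.2%, near the 15.5% and 15% of all genes.

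Matrix genes were lower for a subset. cspg4, a membrane proteoglycan of mural and mesenchymal cells, stood at 48.4 and 28.6 CPM in siblings against 5.76 and 6.19 CPM in DM (log2 fold change -2.68 ± 0.45, DESeq2 adjusted p = 0.000362). col12a1a, a fibril-associated collagen, stood at 71.1 and 61.4 CPM against 10.8 and 15.6 CPM (log2 fold change -2.33 ± 0.39, DESeq2 adjusted p = 0.000201). Both calls were lost without sibling library 1 or DM library 1, and cspg4 also without DM library 3, while WT hearts were near the siblings for both (37.9 and 30.7 CPM of cspg4, 53 and 45.4 CPM of col12a1a).

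The collagen VI chains col6a1 and col6a2, both on chromosome 11, fell together. col6a2 went from 98.2 and 35.8 CPM to 8.55 and 11.5 CPM (DESeq2 adjusted p = 0.00391), and col6a1 from 112 and 42.3 CPM to 15 and 14.0 CPM (DESeq2 adjusted p = 0.0374). Sibling library 1 was well above sibling library 3 on both, and both calls were lost without it or without either DM library. Of 82 genes of collagens, glycoproteins and proteases, 20 lay lower and 11 higher without overlap. These are 24.4% and 13.4%, against 15.5% and 15% of all genes. The list's median log2 fold change was -0.21 with 4 libraries and 0.14 with the libraries numbered 3 alone. The connective tissue growth factor gene ctgfa was on the other side, at 27.7 and 25.0 CPM against 74.8 and 71.0 CPM, and was not called (DESeq2 adjusted p = 0.117).

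Skin and fin-fold genes moved both ways. and1, an actinodin of the embryonic fin fold, had 1404 and 171 counts in siblings and 71 and 14 in DM (DESeq2 adjusted p = 0.000395), with sibling library 1 far above the rest. The and1 call was lost without sibling library 1 (adjusted p = 0.434) and without either WT library (DESeq2 adjusted p = 0.182 and 0.142). frem2a, a basement membrane protein of the fin fold and skin, had 479 and 229 counts against 56 and 43 (DESeq2 adjusted p = 0.0295; lost without sibling library 1 or either DM library). The keratin gene krtt1c19e of basal epidermis rose, from 80 and 150 counts to 548 and 391 (DESeq2 adjusted p = 0.0310, lost whichever library was left out), with 36 counts in each WT library. The 60 skin genes tested had 9 higher and 8 lower without overlap, near the background of all genes.

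Cardiomyocyte genes stood higher in DM than in sibling hearts by count, but not in tests, and their share of counts overlapped between DM and WT. Of 38 cardiomyocyte genes, 17 lay higher in both DM libraries and 2 lower, against 15% and 15.5% of all genes; the median log2 fold change was 0.63 beside 0.04 over all genes. None was called by edgeR or DESeq2. vmhc, the ventricular myosin heavy chain, stood at 3416 and 7589 CPM in siblings against 9945 and 15380 CPM in DM (DESeq2 adjusted p = 1.00). The atrial natriuretic peptide gene nppa stood at 1937 and 3244 CPM against 4978 and 6525 CPM (DESeq2 adjusted p = 0.639). myl7, expressed in both chambers, overlapped, at 2008 and 5059 CPM against 4238 and 6297 CPM. Sibling library 1 was lowest of the 6 hearts on all 3, and WT hearts stood on either side of the DM libraries for nppa (7166 and 4512 CPM), and WT library 3 lay below sibling library 3 for vmhc (12450 and 6586 CPM in WT). Both DM libraries lay below both WT libraries for 11 of the 38 genes and above them for 1, counts with no share over all genes beside them. Relative to the sibling mean on a log2 scale, the median level of the list was 0.53 and 0.85 in DM and 1.59 and 0.58 in WT. The median fold change of the list was 0.35 with the libraries numbered 3 alone. vmhc, nppa and myl7 lie outside the rule for named genes. That rule gave ldb3b, smyd1b and acta1b, higher in both DM libraries, and atp2a2b, lower in both. atp2a2b stood at 466 and 417 CPM in siblings against 185 and 274 CPM in DM. For acta1b the levels were 231 and 658 CPM against 963 and 1554 CPM.

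One sarcomere gene went clearly the other way. zgc:101560, listed under the current symbol tnni4a in the reference names and so a troponin I gene (ENSDARG00000099870), had 447 and 353 counts in siblings and 61 and 10 in DM. Its levels were 125 and 76.6 CPM against 10.0 and 2.29 CPM, and 275 and 109 CPM in WT. The log2 fold change was -4.0 ± 0.79 (DESeq2 adjusted p = 5.19e-05), and the call was kept without any one heart library. It was near 0 in embryos at 25 hpf, and it is named after its values were seen. The cardiomyocyte list has an entry for tnni4a, but this gene was not among its 38 tested members.

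fabp11a, a fatty acid binding protein gene also chosen after its values were seen, had 2091 and 2638 counts in siblings and 922 and 287 in DM. WT hearts had more than either group, 1438 and 839 CPM beside 585 and 572 CPM in siblings against 152 and 65.8 CPM in DM (DESeq2 adjusted p = 0.00221; lost without sibling library 1 or DM library 3). MYADM (1 of many), a gene of the myeloid-associated differentiation marker family of membrane proteins (ENSDARG00000038709, 1 of 2 genes with this symbol among those tested), had 173 and 165 counts in siblings and 9 in each DM library. At -4.56 ± 0.57 it had the smallest unadjusted edgeR p in the lower direction (edgeR adjusted p = 0.723, DESeq2 adjusted p = 3.57e-08).

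Cardiac transcription factors were split. nkx2.5, the homeobox factor of cardiac progenitors, stood at 54.3 and 75.3 CPM in siblings against 97.7 and 107 CPM in DM, and the T-box factor tbx20 at 45.9 and 113 CPM against 160 and 190 CPM. Neither was called (DESeq2 adjusted p = 1.00 for both), and gata4 overlapped, at 64.1 and 160 CPM against 102 and 132 CPM. Of factors known from the sinus venosus and conduction tissue, isl1 (22.9 and 10.8 CPM against 17.9 and 13.5 CPM) and tbx2b (40.9 and 73.8 CPM against 40.5 and 64.8 CPM) overlapped. shox2 had 9.23 and 7.59 CPM against 2.47 and 2.06 CPM and tbx3a 13.2 and 8.68 CPM against 3.62 and 2.98 CPM, neither called. Also lower without a call were isl2a (16.5 and 11.9 CPM against 1.81 and 4.35 CPM) and tbx1 (48.7 and 9.11 CPM against 5.92 and 5.73 CPM). The rule for named genes gave prdm1a, isl2a, shox2 and tbx1 here, all lower in both DM libraries. The other factors in this paragraph, nkx2.5 and tbx20 among them, lie outside that rule. The exception was prdm1a, a zinc-finger repressor active in arches and muscle, which fell from 43.1 and 27.3 CPM to 4.77 and 5.50 CPM (DESeq2 adjusted p = 0.00456), a call lost without sibling library 1 or either DM library (adjusted p up to 0.307). In all, 10 of 31 lay higher and 8 lower without overlap (32.3% and 25.8%, against 15% and 15.5% of all genes).

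Among the genes that rose, blood was represented by hbbe3 and rhag. hbbe3, an embryonic beta globin, had 191 and 171 counts in siblings and 1130 and 779 in DM, a log2 fold change of 2.01 ± 0.36 (DESeq2 adjusted p = 0.000637). WT hearts were closer to DM than to siblings, 185 and 149 CPM beside 186 and 179 CPM. Globin genes lie in a cluster of near-identical copies, so reads may be split among them. rhag, an ammonia channel of the red cell membrane, had 611 and 798 counts against 3286 and 3867 (log2 fold change 2.05 ± 0.40, DESeq2 adjusted p = 0.000723). For rhag both WT hearts, at 274 and 224 CPM, lay between the siblings (171 and 173 CPM) and DM (540 and 886 CPM).

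Of 35 erythroid genes, 17 lay higher and 4 lower without overlap, with a median of 0.52. These are 48.6% and 11.4%, against 15% and 15.5% of all genes. The list took 0.224% and 0.276% of sibling counts, 0.361% and 0.427% of DM counts and 0.525% and 0.540% of WT counts. Both DM libraries lay below both WT hearts for 21 of the 35 members and above them for 2. No share over all genes stands beside these counts, so they are not read as a result. The groups overlapped for alas2, the gene of the rate-limiting enzyme of haem synthesis (97.4 and 154 CPM against 153 and 249 CPM). They also overlapped for the regulator gata1a (3.08 and 9.33 CPM against 8.22 and 14.0 CPM). The hbbe3 call was lost without either DM library or sibling library 3, and the rhag call without DM library 3 or sibling library 1.

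The genes desmb, klhl43 and myoz1a, known from muscle, also rose. desmb, a desmin gene for muscle intermediate filaments, had 4 and 18 counts in siblings against 466 and 128 in DM, a log2 fold change of 4.35 ± 0.80 (DESeq2 adjusted p = 4.81e-05). Without DM library 1, which held the largest share of skeletal muscle transcripts, its adjusted p was 0.126. WT hearts stood at 14.6 and 28.5 CPM of desmb beside 76.6 and 29.3 CPM in DM. klhl43, a kelch protein of muscle, stood at 5.88 and 16.1 CPM against 58.4 and 59.3 CPM (DESeq2 adjusted p = 0.0374), with 65.6 and 30.3 CPM in WT, and the call was lost without sibling library 1 or either DM library. myoz1a, a Z-disc protein gene chosen after its values were seen, had 21 and 95 counts against 348 and 640 (DESeq2 adjusted p = 0.0138), with its highest value in DM library 3, and was lost without that library or sibling library 1.

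The fast muscle troponin gene tnnc2 stood at 350 CPM in DM library 1 and 33.4 CPM in DM library 3, against 32.2 and 17.1 CPM in siblings, and was not called. Of 65 skeletal muscle genes, 17 lay higher and 3 lower without overlap (26.2% and 4.62%, against 15% and 15.5% of all genes). The list's median was 1.06 with 4 libraries and 0.67 with the libraries numbered 3. Of the 18 higher calls, 4 differed more than 4-fold between the DM libraries. ctsl.1, nme2b.2 and org were high in DM library 1 (304, 1401 and 747 counts beside 6, 86 and 33), and si:ch211-57n23.4 in DM library 3 (269 counts beside 8). None of these 4 was called without the library in which it was high.

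slc18a2, the vesicular transporter that loads monoamines into vesicles, rose with a gap of 17.2-fold between the nearest libraries. It had 4 and 5 counts in siblings and 117 and 193 in DM, and 2 and 11 counts in WT. The log2 fold change was 4.81 ± 0.89 (DESeq2 adjusted p = 0.000256), lost without DM library 3 (adjusted p = 0.320). In 25 hpf embryos it stood at 0.647 to 1.47 CPM in both groups. anxa2a, a membrane-binding annexin, had 84 and 94 counts against 545 and 491, pcdh10a, a protocadherin, 78 and 69 against 383 and 247, and ankrd9, an ankyrin repeat gene, 42 and 31 against 269 and 156. Each was called by DESeq2 (adjusted p = 0.0374, 0.0374 and 0.0232), but pcdh10a and ankrd9 failed whichever library was left out, and anxa2a without any 1 of the 4 compared libraries. arg2, hspb11 and b3gnt7 had groups that did not overlap and DESeq2 adjusted p of 0.10, 0.0947 and 0.0579.

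**Figure D4:**
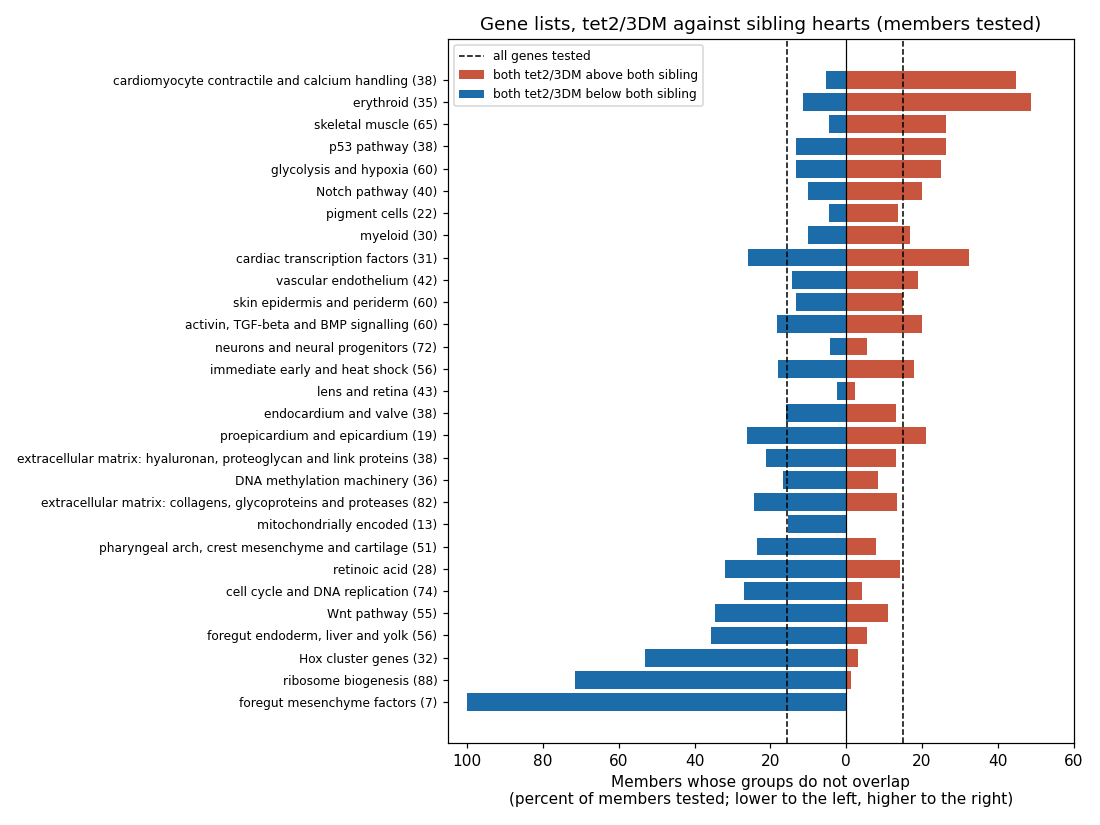
Percent of each list's tested members whose DM libraries both lie below (left, blue) or above (right, red) both sibling libraries; dashed lines mark all genes tested (15.5% and 15%), and the number of members tested is in brackets. Cardiomyocyte, erythroid and skeletal muscle lists lie mostly to the right, and the Hox, ribosome biogenesis and foregut mesenchyme lists, drawn up after their values were seen, mostly to the left. The other lists were chosen with earlier results of these data known.

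Of the ribosome assembly genes, mrto4 and mybbp1a fell. A list of 88 tested ribosome biogenesis genes was drawn up after these values were seen, so its count, median and share carry no weight. In it 63 of 88 lay lower in both DM libraries and 1 higher, with a median log2 fold change of -0.64. mrto4, an assembly factor of the large subunit, fell from 96.0 and 79.2 CPM to 27.3 and 24.5 CPM (DESeq2 adjusted p = 0.00408), a call lost without any 1 of the 4 compared libraries. mybbp1a, a nucleolar regulator, fell from 117 and 112 CPM to 41.3 and 43.3 CPM (DESeq2 adjusted p = 0.0397, lost whichever library was left out). fbl, the fibrillarin methyltransferase of the nucleolus, stood at 144 and 178 CPM against 62.8 and 76.5 CPM and was not called (DESeq2 adjusted p = 0.218). The list took 0.827% and 0.816% of sibling counts and 0.482% and 0.472% of DM counts, but WT hearts, at 0.453% and 0.536%, were at the DM level. This did not hold for the called genes. WT hearts stood at 61.7 and 56.6 CPM of mrto4 and 109 and 82.1 CPM of mybbp1a, above both DM libraries. WT lay below both siblings for 56 of the 88 genes and DM below both WT for 30, again with no share over all genes beside these counts.

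WT hearts, read in the same way for all calls, separated the lower from the higher genes only in part. DM lay below both WT libraries for 53 of the 57 lower calls, and both WT libraries in turn lay below both sibling libraries for 32 of the 57. Of the 18 higher calls, DM lay above both WT libraries for 9, and both WT libraries lay above both siblings for 10. No share over all genes tested is given for these counts, nor for the list counts against WT above. The calls were chosen for DM levels away from the siblings, in a fit that held the WT libraries. DM lying beyond WT as well was therefore in part set by that choice. WT shares no library with the DM or sibling groups but is not a sibling of the mutants: per the labels' protocol, wild-type embryos were bred by crossing AB with TU fish.

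**Figure D5:**
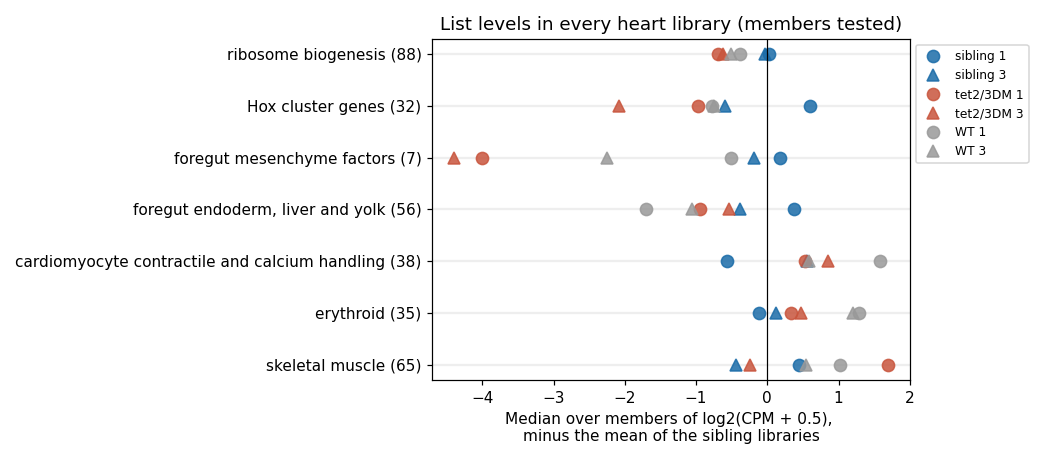
Median over the members of 7 lists of log2(CPM + 0.5), relative to the mean of the sibling libraries, in each heart library (brackets give members tested). For ribosome biogenesis the WT hearts (-0.38 and -0.51) lie near DM (-0.69 and -0.63). For foregut mesenchyme factors DM (-4.01 and -4.40) lies below WT (-0.51 and -2.25), and for erythroid genes WT (1.28 and 1.2) lies above DM (0.34 and 0.48). The ribosome biogenesis, Hox and foregut mesenchyme lists were drawn up after their values were seen.

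The remaining lists held few calls. Their counts below stand beside 15% higher and 15.5% lower without overlap over all genes tested. Vascular endothelium had 8 of 42 members higher and 6 lower without overlap and no call; its closest to a call was sox7, an endothelial SOX factor, at 22.7 and 38.2 CPM against 86.2 and 108 CPM (DESeq2 adjusted p = 0.0629). The Notch list had 8 of 40 higher and 4 lower, myeloid markers 5 of 30 higher and 3 lower, and pigment cells 3 of 22 higher and 1 lower. Hyaluronan, proteoglycan and link protein genes had 5 of 38 higher and 8 lower. Genes of DNA methylation had 3 of 36 higher and 6 lower, among them the de novo methyltransferase gene dnmt3ab at 69.1 and 46.6 CPM against 27.1 and 27.9 CPM (DESeq2 adjusted p = 0.722).

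Cell cycle and replication genes had 20 of 74 members lower and 3 higher, with a median of -0.15 and no call. These are 27.0% and 4.05%, against 15.5% and 15% of all genes. The immediate early and heat shock list had 10 of 56 in each direction, the p53 list 10 of 38 higher and 5 lower, and glycolysis and hypoxia genes 15 of 60 higher and 8 lower. Mitochondrially encoded genes had 2 of 13 lower and none higher, and took 4.26% and 8.82% of sibling counts and 3.90% and 5.34% of DM counts. The lens and retina list, with its contrast between libraries 1 and 3, had 1 of 43 in each direction, and neurons 4 of 72 higher and 3 lower.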

How the data were processed

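Hearts were dissected by hand and their RNA amplified with the Ovation RNA-Seq System V2 before TruSeq library preparation, per the labels. The authors deposited raw counts per gene, on which all tests ran; 18 normalised columns were left out. The log2 fold changes and the p-values with adjusted p-values that the authors deposited are quoted where named. Per the submitters' processing notes the tools were STAR 2.3.0e and HTSeq 0.6.0, with GRCz10 as the build; their roles are not given in the sources used here. The amplification can raise the spread of low counts between libraries.

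Of 25680 genes, 16998 passed filterByExpr. TMM-scaled counts entered edgeR 4.0.16 (R 4.3.3; quasi-likelihood test) on the 6 heart libraries, contrast DM minus sibling, with Benjamini-Hochberg FDR at 0.05. Alternatives were DESeq2 1.42.0, limma-voom (limma 3.58.1), other scaling, filters and thresholds, the compared groups alone, a trend with gene span removed, each library left out, and the replicate number as a block. DESeq2 gave no adjusted p for 4284 genes. Log2 fold changes with an SE come from edgeR, also beside a DESeq2 adjusted p. Intervals are exact 95% intervals of a ratio of summed counts and cover counting error only, as does the limit of 3 counts for a count of 0. The tests were also run on simulated data. That simulation held no tissue differences between libraries, so it cannot tell which calls here are right.

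Members and lists were chosen with earlier results of these data known: 26 lists, 1333 of 1378 symbols found, and 3 more added later. Named genes were the tet genes, the 12 per direction with the smallest p among genes with a proper symbol, a mean of at least 5 CPM and no overlap, and up to 4 per list by p among members without overlap. Other genes lie outside this rule and were picked with the data known, and only some are marked so where they appear. Those not marked include nfatc1, klf2a, notch1b, tbx18, wt1a, alas2, gata1a, mrto4, mybbp1a and fbl. Some genes of the rule are given by counts only. Sequences were not used here. The counting is not stated to use strand.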

Additional observations from a re-analysis of the deposited data

How the results depend on the processing

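edgeR called 0 genes in either direction under all its alternatives except with no filter on low counts, which called 3 lower: MYADM (1 of many), BMP10 (1 of many) and hoxb8a. DESeq2 called 57 lower and 18 higher. Without both libraries numbered 1 DESeq2 called 5 lower and 1 higher, at an FDR of 0.01 it called 28 and 4, and without single heart libraries between 12 and 57 lower and between 4 and 75 higher (22 lower and 4 higher without DM replicate 1, 18 and 50 without DM replicate 3, 12 and 11 without sibling replicate 1, 50 and 75 without sibling replicate 3); the cause was not tested, and fewer libraries entered these fits. A gap of at least 2-fold left 155 higher and 264 lower genes of those without overlap. The numbers 1 and 3 are not stated to pair the samples, and with 2 pairs the check cannot show it (correlation of deviations between sibling and DM hearts 0.30). With the replicate block edgeR called 0 and DESeq2 38 lower and 12 higher.

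Of 110 named genes, 108 kept their direction under all alternatives. Apart from the tet genes, all were chosen because their groups did not overlap. Leaving out a library could therefore hardly reverse them, and this count gives no support. The exceptions were tet1, at 0.12 without both libraries numbered 1 and between -0.37 and 0.0019 without single replicates, and tet3, between -0.0349 and 0.68 without single replicates. With 2 amplified libraries a group, depth limits genes under about 1 CPM, where a count of 0 allows up to 0.839 CPM.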
